A study of Mus musculus with 6 samples.

Results

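RNA of 10 genes of the actin cytoskeleton was followed in hematopoietic stem cells of old and young mice: the actins Actb and Actg1, the tropomyosins Tpm1, Tpm3 and Tpm4, the monomer binders Pfn1, Tmsb4x and Tmsb10, the filament-severing factor Cfl1 and the motor Myh9. They are 10 of the 24091 genes in the count table, were found by symbol, and all 10 were among the 13413 genes with enough counts to be tested. The genes were chosen by family, with measured values of these libraries already known, among them the level of Actb in a young library and the low Tpm4 of aged cells. Values and adjusted p-values of these 10 are therefore a description and support nothing by themselves.

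The study compared stem cells of mice labelled wt. The gate kept cells that carry Sca-1, c-Kit and CD150 and lack CD48 and lineage markers. Aged cells came from mice 20 months old (3 libraries, aged 1 to 3) and young cells from mice 2 months old (3 libraries, young 4 to 6), with no treatment named. Each library is a pool, drawn from 4 aged or 30 young mice, and the labels do not say whether these numbers hold for a sample or for the group. The p-values thus reflect how far pools differ, and some of that may be technical. Totals ran from 16452829 counts in young 4 to 21918658 in young 6.

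Actin is the most abundant protein of the cytoskeleton in most animal cells. Monomers held by profilin or thymosins add to filaments, tropomyosins wind along the filaments, cofilin takes them apart and myosin II pulls on them. In blood stem cells this network bears on shape, on adhesion to the niche, on migration and on the ring that closes a dividing cell.

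Several of these genes have close copies, and reads of 51 bases do not always tell copies apart. The first 102 coding bases of both cytoplasmic actins are shown because they span more than a single read of 51 bases. Capitals mark the 17 bases at which the genes differ (GENCODE transcripts, mm10, coding strand, 5′ to 3′):
Actb: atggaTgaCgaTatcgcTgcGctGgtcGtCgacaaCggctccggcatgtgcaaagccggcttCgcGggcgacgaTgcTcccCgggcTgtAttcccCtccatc
Actg1: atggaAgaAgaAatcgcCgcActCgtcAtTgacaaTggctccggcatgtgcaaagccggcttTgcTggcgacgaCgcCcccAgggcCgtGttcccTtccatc

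Over the whole coding sequence of 1128 bases these actins differ at 128 bases and are 88.7% identical. Their longest identical run is 62 bases, from coding base 889 to 950, which is longer than a read. Both thymosin genes are shown from the start codon they share to the stop codon, 135 bases, because they encode small monomer binders of the same family. Capitals mark the 40 bases that differ, which leaves 70.4% identical and no shared run over 10 bases:
Tmsb4x: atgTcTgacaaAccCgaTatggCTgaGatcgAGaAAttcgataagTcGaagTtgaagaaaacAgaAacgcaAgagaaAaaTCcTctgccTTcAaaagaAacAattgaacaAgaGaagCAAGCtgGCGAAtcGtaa
Tmsb10: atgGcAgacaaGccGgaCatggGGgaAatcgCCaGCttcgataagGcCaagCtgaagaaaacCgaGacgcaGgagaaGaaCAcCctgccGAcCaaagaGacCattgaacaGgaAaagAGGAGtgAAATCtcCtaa

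Copies elsewhere in the genome were counted as well. For each gene, the protein-coding transcript nearest in length to the length in the table was divided into all windows of 51 bases, and each window was looked up in the annotated transcripts of other genes on either strand. Of the windows of Actg1, 56.7% stood in other genes, and within its coding sequence it was 100% (1078 of 1078). Gm12715, a processed pseudogene on chromosome 4, alone held 51.0% of the Actg1 windows. Actb shared 13.3%, of which the largest part lay in Lrrc58 on chromosome 16 (9.09%), and only 1.39% in Actg1. Tpm3 shared 62.0%, all of it also present in the tropomyosin copy Tpm3-rs7 on chromosome 14, and Tmsb10 shared 43.0%, mostly with Gm9844 on chromosome 7 (32.8%). Cfl1 shared 19.9% and Tpm4 15.9%, Myh9 1.10%, and Tpm1, Pfn1 and Tmsb4x had 0 shared windows. Within the coding sequence the share was 77.6% for Tmsb10, 69.9% for Tpm3, 47.3% for Tpm4 (330 of 697 windows), 34.5% for Cfl1 and 18.5% for Actb. How reads with several matches were counted is not given in the sources used here. Levels of Actg1, Tpm3 and Tmsb10, and also those of Tpm4, Cfl1 and Actb, are therefore uncertain. The part of this in the values below was not tested.

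**Figure D1:**
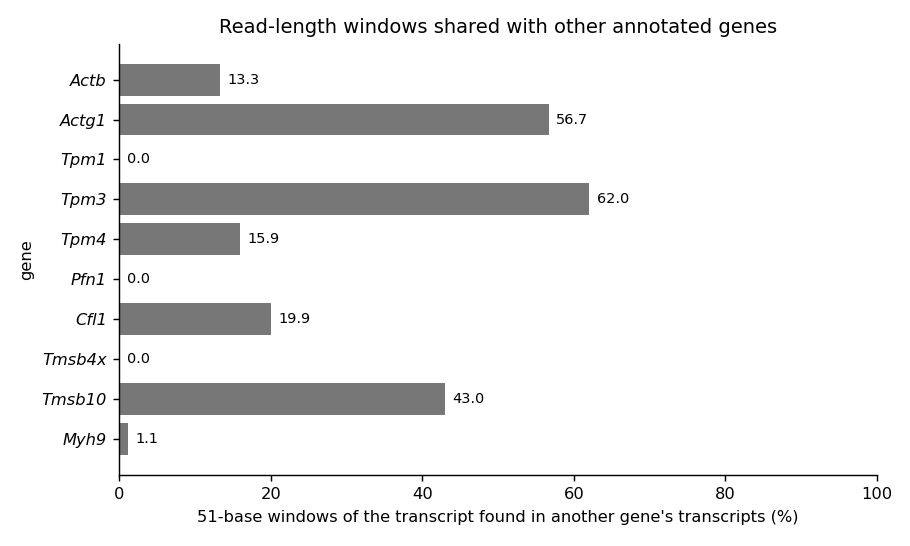
Share of the 51-base windows of each gene's transcript that also occurs in an annotated transcript of another gene (horizontal axis, percent; one bar per gene). Tpm3 (62.0%), Actg1 (56.7%) and Tmsb10 (43.0%) share the most, and Tpm1, Pfn1 and Tmsb4x share none.

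Young 4 stood apart from the other libraries, with a TMM scaling factor of 0.765 against 1.04 to 1.08 elsewhere. With values given as CPM (counts relative to library size, scaled by the TMM method), it was the highest of the 6 libraries for 7 of the 10 members and the lowest for none. Over all tested genes it was highest for 35.5% and lowest for 35.3%. As shares of raw counts, without that scaling, young 4 was highest only for Actb, Tpm3, Tmsb10 and Myh9 among the members. It was then lowest for Tpm1 (0.0134%) and Cfl1 (0.0879%). Over the members, the mean absolute log2 difference of young 4 was 0.733 from young 5 and 0.696 from young 6, whereas these latter libraries differed by 0.0779. Over all tested genes the same differences were 0.689, 0.703 and 0.221, so the distance of young 4 was not particular to the members. The members' log2 fold changes are therefore also given without young 4.

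Actb encodes beta-actin, the main cytoplasmic actin (chromosome 5, 142903115 to 142906754, minus strand; all positions are mm10). Its level was 5157, 13094 and 9166 CPM in aged 1, 2 and 3 and at 53157, 10311 and 10142 CPM in young 4, 5 and 6. Young 4 was far above the rest, young 5 and 6 lay inside the aged range, and the groups overlapped. The ratio of young 4 to the mean of young 5 and 6 was 5.20, and 0.283% of 13407 genes had a ratio as high or higher. By edgeR the log2 fold change, aged minus young, was -1.42 ± 0.72 (SE), a 2.68-fold lower level with an adjusted p of 0.260. Without young 4 it was 1.13-fold lower with an adjusted p of 0.786, so most of the difference between the group means rested on that library. Aged 1 was the lowest of the 6 and aged 2 the highest after young 4. Lrrc58, which holds 9.09% of the Actb windows, was at 217, 475 and 420 CPM in aged 1, 2 and 3. In young 4, 5 and 6 it was at 1498, 325 and 384 CPM, so it too was far highest in young 4. The part of shared windows in these values was not tested.

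Actg1 encodes gamma-actin, which differs from beta-actin in a few residues at the start of the protein (chromosome 11, 120345687 to 120348495, minus strand). Its CPM was 172, 104 and 107 in aged and 165, 162 and 158 in young libraries. Aged 1 reached the young level while aged 2 and 3 lay below it. The log2 fold change was -0.34 ± 0.23 (SE), with an adjusted p of 0.369, and -0.35 without young 4 (adjusted p = 0.366). The young libraries, young 4 included, had a mean of 161 CPM with an SD of 3.21 CPM, and young 4 was 1.03 times the mean of young 5 and 6. This closeness holds after TMM scaling. As shares of raw counts, young 4 was at 0.0126% and young 5 and 6 at 0.0168% and 0.0165%. Per kb of gene length, Actb was 30.5 times Actg1 in aged 1 and 328 times in young 4, with the other 4 libraries between 64.8 and 128. Of the Actg1 windows of 51 bases, 56.7% stood in other genes, against 13.3% for Actb. The part of this in these ratios was not tested.

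**Figure D2:**
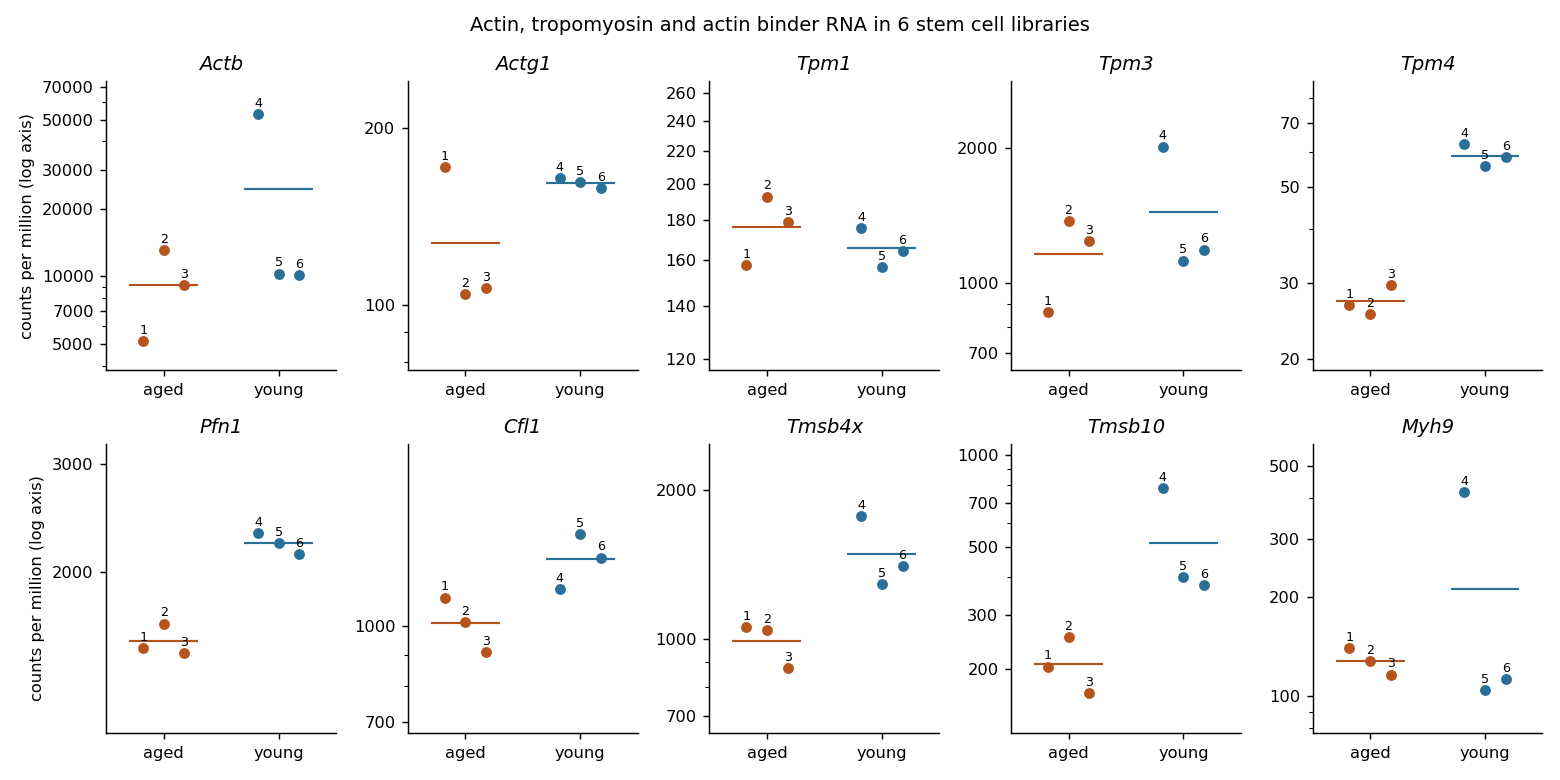
CPM on log axes in each of the 6 libraries, one panel per gene; points are libraries with their number, short lines are group means. Tpm4, Pfn1, Cfl1, Tmsb4x and Tmsb10 have all 3 aged points below all 3 young points, while young 4 alone is high for Actb (53157 CPM) and Myh9 (418 CPM).

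Among the tropomyosins, which decide in part which other proteins reach a filament, Tpm4 was the member called between the ages (chromosome 8, 72135292 to 72153129, plus strand). Aged 1, 2 and 3 had 26.7, 25.4 and 29.6 CPM, and young 4, 5 and 6 had 62.6, 55.8 and 58.4 CPM. In CPM the groups were well apart and each was tight: young 4 was only 1.10 times the mean of the other young libraries. As shares of raw counts, aged 1, 2 and 3 were at 0.00287%, 0.00265% and 0.00317%. Young 4 was then the lowest young library, at 0.00478% against 0.00581% and 0.00608% in young 5 and 6. Tpm4 was called lower in aged cells, 2.16-fold, and edgeR gave a log2 fold change of -1.11 ± 0.15 (SE) with an adjusted p of 0.0157. The fold was 2.13 without young 4 (adjusted p = 0.0132). The call was lost without aged 2, aged 3, young 5 or young 6, with adjusted p-values of 0.0696, 0.0706, 0.0735 and 0.0719, while the log2 fold change stayed between -1.18 and -1.09 with any library left out.

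Tpm3 was the most abundant tropomyosin (chromosome 3, 90072651 to 90100902, plus strand). Its CPM was 864, 1375 and 1240 in aged and 2017, 1123 and 1189 in young libraries, so young 4 was high and the others overlapped. The log2 fold change was -0.32 ± 0.30 (SE, adjusted p = 0.523), and -0.01 without young 4. Tpm1 (chromosome 9, 67022593 to 67049213, minus strand) was the steadiest member: 158, 193 and 179 CPM in old and 176, 157 and 164 CPM in young cells, a range of 1.23 times from lowest to highest. Its log2 fold change was 0.09 ± 0.16 (SE, adjusted p = 0.727), and 0.11 without young 4 (adjusted p = 0.619).

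The fourth tropomyosin gene, Tpm2, was no member but belonged to the wider list of actin genes, and it was called lower as well (chromosome 4, 43513726 to 43523554, minus strand). It was expressed at 2.83, 5.06 and 2.88 CPM in aged 1 to 3 and at 14.5, 11.9 and 10.4 CPM in young 4 to 6, without overlap. It fell 3.41-fold, with an edgeR log2 fold change of -1.77 ± 0.31 (SE) and an adjusted p of 0.0289. The call held without aged 2 or young 4 and was lost without each of the others, with adjusted p-values up to 0.115. Measured per kb, Tpm3 made up 84.0 ± 2.26% of tropomyosin RNA in aged and 83.5 ± 3.44% in young libraries (SD, n = 3 each), and Tpm4 made up 3.59 ± 0.816% and 6.31 ± 1.34%. The share of Tpm4 in young 4 was 4.77%, close to the 4.42% of aged 1, and Tpm3 was high there. Tpm3 and Tpm4 share windows with other genes, and the part of this in these percentages was not tested.

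Among the binders of the actin monomer, Pfn1 encodes profilin 1, which loads monomers onto growing filament ends (chromosome 11, 70651847 to 70654650, minus strand). Aged 1, 2 and 3 had 1500, 1643 and 1469 CPM, and young 4, 5 and 6 had 2314, 2228 and 2136 CPM. The groups did not overlap and, in CPM, young 4 was only 1.06 times the mean of young 5 and 6. As shares of raw counts, young 4 was at 0.177%, nearer to the 0.171% of aged 2 than to young 5 and 6 (0.232% and 0.222%). The level was 1.45-fold lower in aged cells (log2 fold change -0.53 ± 0.18 SE) and did not pass the threshold (adjusted p = 0.128, and 0.0535 without young 4). With GC content and length trends taken out, the log2 fold change was -0.68 (edgeR adjusted p = 0.0485). Pfn1 was called in 3 of 18 alternative fits.

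Tmsb4x encodes thymosin beta-4, which holds monomers in reserve (chromosome X, 167207094 to 167209218, minus strand). Its CPM was 1058, 1043 and 872 in aged and 1769, 1288 and 1403 in young libraries, again without overlap. The difference was 1.50-fold (log2 fold change -0.59 ± 0.21 SE, adjusted p = 0.143), and 1.38-fold without young 4 (adjusted p = 0.0913). After correction for GC content and length the log2 fold change was -0.26 (adjusted p = 0.432). Tmsb4x was called in 2 of 18 alternative fits.

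Tmsb10, its relative thymosin beta-10 (chromosome 6, 72957347 to 72958748, minus strand), stood at 203, 254 and 167 CPM in aged 1 to 3 and at 780, 399 and 376 CPM in young 4 to 6. All aged values lay below all young values, and young 4 was 2.01 times the mean of young 5 and 6. The level was 2.49-fold lower in aged cells (log2 fold change -1.32 ± 0.33 SE) with an adjusted p of 0.0659. Without young 4 the fold was 1.89 and the gene was called (adjusted p = 0.0409). After correction for GC content and length the log2 fold change was -1.49 (edgeR adjusted p = 0.0411). Tmsb10 was called in 7 of 18 alternative fits. Per kb, Tmsb4x was 7.32, 5.78 and 7.37 times Tmsb10 in aged 1, 2 and 3 and 3.19, 4.55 and 5.26 times in young 4, 5 and 6. By these counts Tmsb10 formed a larger part of the thymosin RNA in each young library. The genes differ in shared windows (43.0% for Tmsb10, 0 for Tmsb4x) and in GC content (58.7% and 47.5%). The part of these in the ratio was not tested.

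Cfl1 encodes cofilin 1, which severs old filaments (chromosome 19, 5490455 to 5494031, plus strand). Its CPM was 1114, 1017 and 908 in aged and 1150, 1411 and 1292 in young libraries. In CPM the groups did not overlap, though aged 1 and young 4 lay close together, and here young 4 was the lowest young library. As shares of raw counts the groups did overlap. The shares were 0.120%, 0.106% and 0.0972% in aged 1, 2 and 3 and 0.0879%, 0.147% and 0.134% in young 4, 5 and 6. The log2 fold change was -0.34 ± 0.19 (SE, adjusted p = 0.290), and -0.44 without young 4 (adjusted p = 0.0967). Per kb the ratio of Actb to Cfl1 was 28.5 in young 4 and between 2.85 and 7.94 in the other 5 libraries.

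Myh9 encodes the heavy chain of non-muscle myosin IIA, the motor that tightens actin bundles (chromosome 15, 77760585 to 77842175, minus strand). Aged 1, 2 and 3 had 140, 128 and 117 CPM, and young 4, 5 and 6 had 418, 105 and 113 CPM. Young 5 and 6 were below all aged libraries, and young 4 was 3.84 times their mean. With all libraries the log2 fold change was -0.72 ± 0.53 (SE, adjusted p = 0.409), and without young 4 the direction turned to 0.22 (adjusted p = 0.317).

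**Figure D3:**
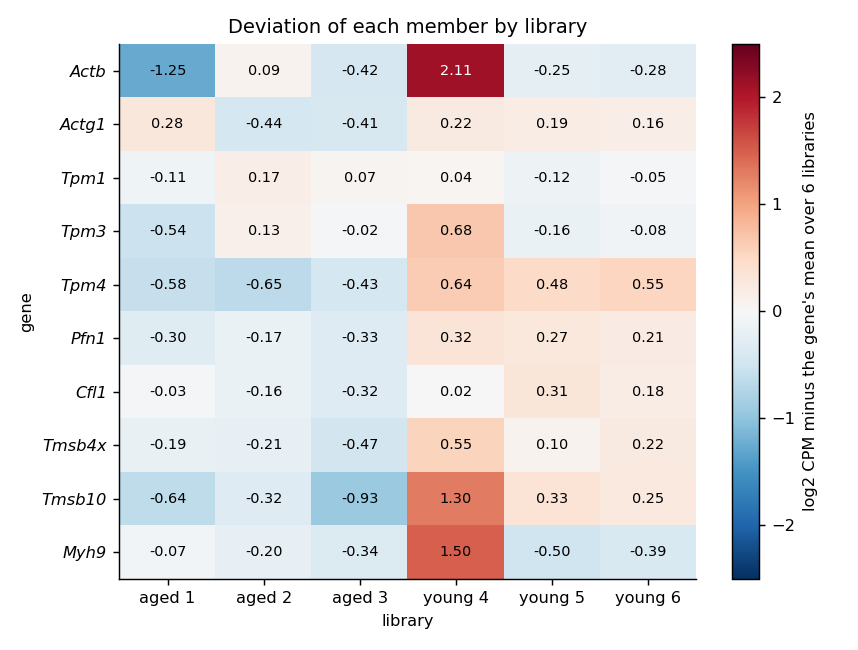
Deviation of each gene's log2 CPM from its mean over the 6 libraries (colour and printed value; rows are genes, columns are libraries). Young 4 deviates most for Actb (2.11), Myh9 (1.50) and Tmsb10 (1.30), whereas Tpm4 and Pfn1 have similar values in all 3 young libraries.

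Taking the 10 genes together, 1 was called lower and 0 were called higher in aged cells. Over all tested genes edgeR called 1.5% lower and 4.26% higher. For 5 members, Tpm4, Pfn1, Cfl1, Tmsb4x and Tmsb10, all aged libraries lay below all young ones in CPM, and for 0 members above. Over all tested genes these shares were 17.6% and 19%. As a share of raw counts, Cfl1 overlapped between the groups. Since the members were chosen with this comparison known, nothing is read from these shares. The median log2 fold change was -0.56 over the members and 0.04 over all tested genes, and it was -0.39 for the members without young 4. An unadjusted p below 0.05 was reached by 4 members, all lower in aged cells, and by 11.1% (lower) and 13.9% (higher) of all tested genes. In bulk samples, fewer cells of a type and less RNA per cell cannot be told apart.

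**Figure D4:**
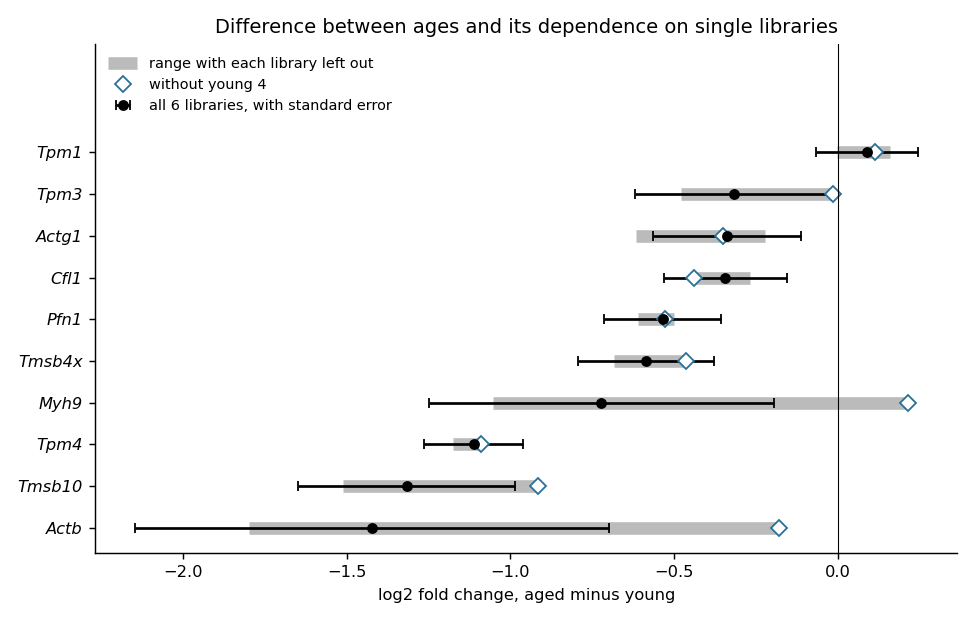
Log2 fold change, aged minus young, of each gene (horizontal axis): black points with standard error for all 6 libraries, open diamonds without young 4, grey bars the range with each library left out in turn. Actb moves from -1.42 to -0.18 and Myh9 from -0.72 to 0.22 without young 4, while Tpm4 stays between -1.18 and -1.09.

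Levels were compared between genes only per kb of the gene length in the table. By the median of 6 libraries, Actb came first with 5343 CPM per kb, followed by Pfn1 (2180), Tmsb4x (1759), Cfl1 (959), Tmsb10 (335), Tpm3 (333), Actg1 (82.2), Tpm1 (43.5), Tpm4 (20.6) and Myh9 (11.8). The ranges over the 6 libraries overlapped for the neighbours Pfn1 and Tmsb4x, Cfl1 and Tmsb10, Tmsb10 and Tpm3, and Tpm4 and Myh9. They did not overlap for the other neighbours, although the lowest Actb value (2694 in aged 1) was close to the highest Pfn1 value (2669 in young 4). Shared windows make the levels of Actb, Actg1, Tpm3, Tpm4, Tmsb10 and Cfl1 uncertain, and their part in this order was not tested.

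A wider list of 128 other actin cytoskeleton genes in the table, sorted by role, gives the surroundings of these members. Of the 117 tested, 3 were called lower and 3 higher in aged cells, 2.56% each, against 1.5% and 4.26% of all tested genes, and their median log2 fold change was 0.03. The counts were 20 with all aged libraries below and 17 with all aged libraries above the young ones, against 17.6% and 19% of all tested genes. Beside Tpm2, the called genes belonged to myosin II and its control (2 lower and 2 higher of 11) and to the formins and Ena/VASP proteins (1 higher of 13). No gene was called by edgeR among 5 monomer binders, 11 severing factors, 10 capping genes, 9 Arp2/3 subunits, 13 Arp2/3 activators, 14 crosslinkers and 10 membrane linkers. Over all 117 genes, an unadjusted edgeR p below 0.05 was reached by 10 lower and 11 higher ones, against 11.1% and 13.9% of all tested genes. DESeq2 called 7 of the 117 lower and 6 higher, and 16.3% of all tested genes in either direction. Of the 72 genes in these 7 lists, 3 lower and 6 higher ones had an unadjusted p below 0.05. DESeq2 called 5 of the 72 (Add3, Cnn3, Eps8, Gmfg and Tmod2). These lists were picked for having no edgeR call, so low counts in them follow in part from that choice.

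The myosin genes did not move one way. Mylk encodes the kinase that switches on the myosin light chain (chromosome 16, 34745210 to 35002434, plus strand). Aged 1, 2 and 3 had 66.6, 53.8 and 74.7 CPM, and young 4, 5 and 6 had 24.8, 29.5 and 28.4 CPM, well apart. It rose 2.36-fold, with an edgeR log2 fold change of 1.24 ± 0.18 (SE) and an adjusted p of 0.0184.

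Myh10, the heavy chain of non-muscle myosin IIB and a close relative of Myh9, fell 1.77-fold (chromosome 11, 68691915 to 68816624, plus strand). Its CPM was 13.7, 11.9 and 11.1 in aged and 20.9, 23.2 and 20.7 in young libraries (adjusted p = 0.0498). Unlike Myh9, it was not high in young 4. Myh14, the heavy chain of myosin IIC (chromosome 7, 44605803 to 44670843, minus strand), had 32, 70 and 36 counts in aged and 4, 2 and 4 counts in young libraries. It was called higher (adjusted p = 0.0249), but the young counts are too few for a fold. Myl9, a regulatory light chain typical of smooth muscle and platelets (chromosome 2, 156775464 to 156781657, plus strand), had 4, 12 and 11 counts in aged and 29, 42 and 48 in young libraries and was called lower (adjusted p = 0.0371).

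These calls depended on single libraries and, for Myh10 and Myl9, on the processing. Mylk kept its call without aged 2 or young 4, Myh14 without aged 1 or young 4, and Myh10 and Myl9 only without young 4; the other left-out libraries gave adjusted p-values up to 0.0811, 0.0919, 0.203 and 0.129 for the same genes. Myh10 also lost its call with upper-quartile scaling (adjusted p = 0.0595), scaling by library size only (0.149), no filter (0.0765), a minimum of 5 CPM (0.0603) and thinning to the smallest library (0.0509), and Myl9 with thinning (0.0515). Without both young 4 and aged 2 the calls of Myh10 and Myl9 were lost as well (adjusted p of 0.0740 and 0.0620). Measured per kb, Myh9 made up 81.0% to 94.9% of the RNA of the 3 heavy chains in each library.

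**Figure D5:**
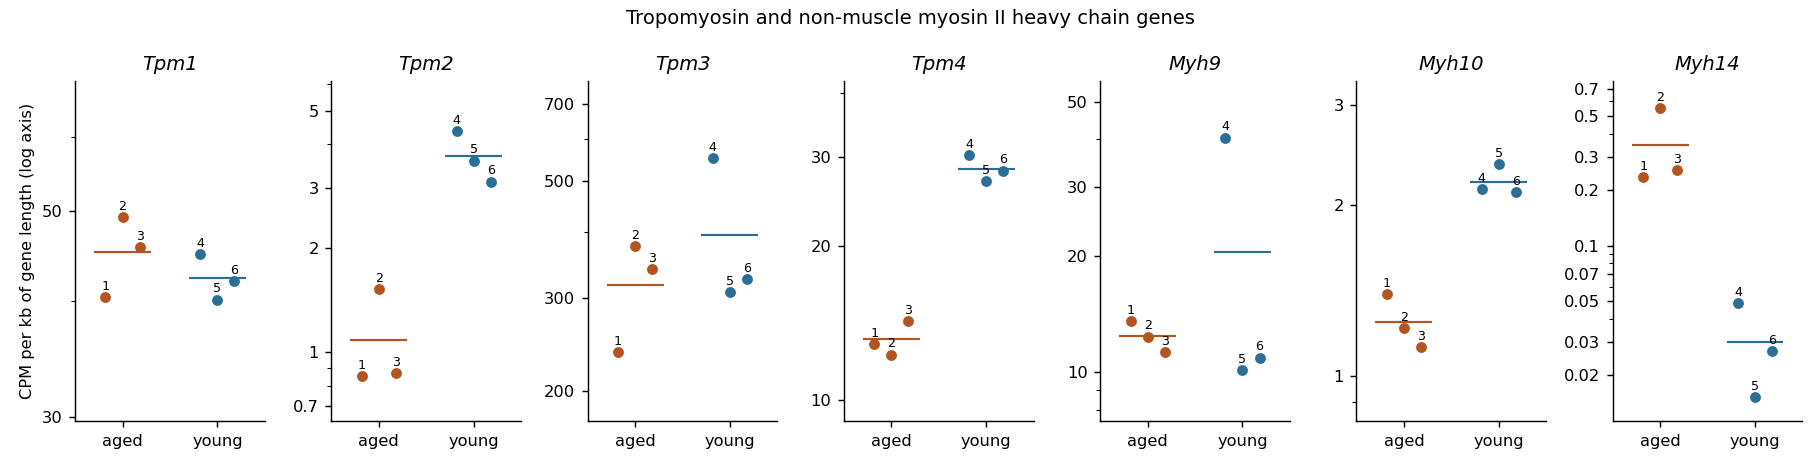
CPM per kb of gene length on log axes for the 4 tropomyosin and 3 non-muscle myosin II heavy chain genes; points are the 6 libraries with their number, short lines are group means. Tpm2, Tpm4 and Myh10 have all aged points below all young points and Myh14 has them above, while Myh9 is high in young 4 alone.

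Fmn1, a formin that nucleates unbranched filaments, was called higher (adjusted p = 0.0401) at low levels: 30, 31 and 34 counts in aged and 2, 10 and 8 in young libraries. That call was kept only without young 4 and reached an adjusted p of 0.143 with another library left out; without both young 4 and aged 2 it was 0.0774. In the lists without a call, the gene with the highest mean was Actr2 for the Arp2/3 complex, which seeds branched filaments, and it was at 600, 987 and 788 CPM in aged 1 to 3 and 3163, 840 and 863 CPM in young 4 to 6. Like Actb, it was high in young 4 alone (log2 fold change -1.03, adjusted p = 0.272, and -0.12 without young 4). Twf1, which encodes the monomer binder twinfilin, was likewise highest in young 4, with 752 CPM there and 103 to 266 CPM elsewhere. Its log2 fold change was -0.91 (adjusted p = 0.405) and turned to 0.20 without young 4. Capza2, a subunit of capping protein, was high in young 4 as well, at 1082 CPM against 482 to 592 CPM in the other libraries (adjusted p = 0.284).

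Other abundant genes of these lists were not high in young 4. Coro1a, a coronin of blood cells, was lowest in young 4 at 106 CPM and highest in aged 1 at 491 CPM; its log2 fold change was 0.36 (adjusted p = 0.651) and turned to -0.03 without young 4. Msn, which encodes the membrane linker moesin, was also lowest in young 4, at 228 CPM against 431 to 543 CPM (adjusted p = 0.324). Lcp1, the leukocyte plastin that bundles filaments, had a mean of 745 ± 85.8 CPM with age and 579 ± 59.7 CPM in young cells (SD over 3 libraries; edgeR adjusted p = 0.259). Cyfip1 of the WAVE complex lay between 203 and 236 CPM in all 6 (adjusted p = 0.720).

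Serum response factor, encoded by Srf, switches on many actin genes when its cofactors, encoded by Mkl1 and Mkl2 and also called MRTF-A and MRTF-B, are released from actin monomers. Srf ranged from 7.80 to 8.44 CPM in the aged libraries and stood at 8.27, 11.3 and 11.1 CPM in young 4, 5 and 6 (adjusted p = 0.351). Mkl1 was lowest in young 4 (12.1 CPM) and highest in aged 1 (43.6 CPM), while Mkl2 was lowest in aged 1 (80.4 CPM) and highest in young 4 (359 CPM), with adjusted p-values of 0.855 and 0.696. Without young 4 the log2 fold change turned from 0.17 to -0.14 for Mkl1 and from -0.37 to 0.51 for Mkl2. None of the 3 was called.

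The factor's binding motif, the CArG box, was searched in windows from 250 bases before to 50 bases after the annotated gene start (RefSeq, GRCm38.p6). Its strict form was used, 10 bases with CC first, GG last and only A or T between, which reads alike on both strands. Sites with a mismatch or outside these windows were not searched. Windows were found for 9 of the 10 members, and none was found for Actb. Of all 32851 windows, 1.63% held a match. Of the 12 windows of these 9 members, only that of Actg1 held a match, 90 bases before its start. The 150 bases before its start (chr11:120348496-120348645, minus strand) are shown because they carry that match, which stands in capitals:
Actg1: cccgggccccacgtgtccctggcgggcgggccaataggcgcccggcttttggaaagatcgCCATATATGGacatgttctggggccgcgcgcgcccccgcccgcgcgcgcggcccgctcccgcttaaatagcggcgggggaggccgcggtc

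A match is a description of letters and not of a bound site. Without a window for Actb the actins cannot be compared for the motif, and a link between the motif and RNA level was not tested.

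Genes with a pattern most like that of Actb and Tpm4 were found by the mean absolute difference between centred log2 CPM values over the 6 libraries, among 7732 other genes with a mean of at least 20 CPM. Closest to Actb were Tmem263 (difference 0.06), Kdelr2 (0.07), Mcmbp (0.10), Set (0.11) and Pfas (0.11). Set, which encodes a histone chaperone, was at 902, 1819 and 1404 CPM in aged 1 to 3 and 7698, 1669 and 1747 CPM in young 4 to 6. Each of these 5 was thus lowest in aged 1 and far highest in young 4. Closest to Tpm4 were Anp32b (0.11), Purb (0.14), Rab27b (0.14), Pradc1 (0.14) and Tra2b (0.15). Tra2b, a splicing regulator gene, was at 357, 417 and 352 CPM in aged 1 to 3 and 781, 646 and 644 CPM in young 4 to 6.

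Markers of other cells were summed per library. Of the 10 megakaryocyte and platelet markers, 9 were tested and 1 was called lower in aged cells, against 1.5% of all tested genes. They summed to 1338 CPM in aged 1, 419 in aged 2 and 324 in aged 3, and to 763, 1129 and 1348 in young 4, 5 and 6. Aged 1 was as high as the young libraries in this sum, and the sums of the groups overlapped. Over all tested genes, aged 1 was the highest library for 26.1%. The part of these markers in the results was not tested. The 9 macrophage markers summed to 43.8 to 47.4 CPM with age and 54.7 to 83.8 CPM in young cells, without overlap, and their part in the results was not tested. The 7 neutrophil markers came to at most 4.13 CPM and the 5 T and NK cell markers to at most 0.568 CPM in any library. Erythroid sums (76.8 to 103 CPM in aged, 36.1 to 135 CPM in young), stroma and vessel sums (29.3 to 44.8 and 10.9 to 85.0 CPM) and B cell sums (59.7 to 87.0 and 74.3 to 134 CPM, of which 98.6% was Cd79b) overlapped between the ages. Of the 8 stroma and vessel markers, 5 were tested and 1 was called lower.

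The label of the cells was checked on 8 genes of the stem cell sort, 7 of stem cells and Cd48, against which the gate selects. All had counts in every library, and Kit, the receptor selected for, made up 52.6% of their sum. The sum was 1717 to 2061 CPM with age and 866 to 1405 CPM in young cells, without overlap. In aged cells 4 of the 8 genes were called higher and 1, Cd48, was called lower. Over all tested genes 4.26% were called higher and 1.5% lower. Cd48, named after its values were seen, had 53, 22 and 11 counts in aged 1, 2 and 3 and 182, 190 and 196 counts in young 4, 5 and 6 (edgeR adjusted p = 0.0345). Like Tpm4, Pfn1, Cfl1, Tmsb4x and Tmsb10, Cd48 was lower in CPM in every aged than in any young library. Its part and that of the other sort genes in the results was not tested.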

How the data were processed

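RNA of 6 pools of sorted stem cells, 3 aged and 3 young, was sequenced as single reads of 51 cycles after full-length cDNA amplification with a SMART-Seq v4 kit, per the labels' protocols. The kit does not mark strand. The submitters' processing notes name Trimmomatic, STAR 2.6.0, HTSeq 0.11.1, edgeR and the build mm10, without roles. Neither the annotation nor how multiply matching reads were counted is stated there. What the authors deposited is a table of whole-number counts per gene without scaling, with gene lengths in kb.

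All tested genes were fitted together in edgeR 4.0.16 under R 4.3.3 by its quasi-likelihood test (glmQLFTest) after filterByExpr and TMM, with age as the only term. Adjustment was by Benjamini-Hochberg over 13413 genes with a threshold of 0.05. CPM values are TMM-scaled; a count of 0 allows up to 3 counts, 0.132 to 0.238 CPM by library, for counting error only. Groups came from sample titles; replicate numbers differ between groups. All pairs of libraries within a group differed by more than sampling noise (lowest chi-square divided by its degrees of freedom 10.7). On simulated counts of 13413 genes, 3 against 3, 78 of 100 genes changed 4-fold and 11 of 100 changed 2-fold were recovered, with 5 unchanged genes called.

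Members and lists were chosen with earlier results of these data known. The wider list was sorted by role and not by values. A role list that counts in its totals is not reported here by itself. Named from it were up to 2 called genes a direction and list by smallest p, or the most abundant gene where none was called. Alternatives were other scalings, filters, tools (DESeq2 1.42.0, limma 3.58.1), thinning, removal of genes above 1% of a library and each library left out. A fit without young 4 and aged 2, and one with GC content and length trends taken out (splines, 4 degrees of freedom, GC known for 98.0% of genes), were added after seeing the data.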

Additional observations from a re-analysis of the deposited data

How the results depend on the processing

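The direction of Actb, Actg1, Tpm4, Pfn1, Cfl1, Tmsb4x and Tmsb10 was the same under every alternative that gave them a value. With each library left out in turn, 0 to 2 members were called lower (main value 1), 0 to 6 other actin genes lower and 0 to 6 higher (3 and 3), and 3 to 350 of all genes lower and 71 to 679 higher (201 and 571). Myh9 turned to 0.22 without young 4, 0.21 without young 4 and aged 2 and 0.14 with quality weights in limma-voom; Tpm3 turned to 0.0814 with those weights, and Tpm1 to -0.0022 without aged 2 and -0.11 after correction for GC content and length. Members called lower numbered 2 with library size only, with no filter and without both young 4 and aged 2, 3 after correction for GC content and length, 4 by DESeq2 and 6 with quality weights. Other actin genes called lower and higher were 1 and 1 at 5 CPM or more, 7 and 6 by DESeq2 and 15 and 15 with quality weights; 1 was lower after thinning and 6 after correction for GC content and length. Of all genes, 133 were lower with library size only, 342 with no filter, 80 (363 higher) at 5 CPM or more, 926 (1255 higher) by DESeq2 and 1768 (2326 higher) with quality weights. After that correction 679 were lower and 686 higher, 50.3% higher against 74.0% in the main fit and 57.5% by DESeq2. Scaling by library size only moved the median log2 fold change of all genes from 0.04 to 0.20. The cause of these shifts was not tested. With each library left out, Tpm1 ranged from -0.0022 to 0.16 and Myh9 from -1.05 to 0.22. No paired analysis was made because the sample labels give no link between an aged pool and a young one. The removal of genes above 1% of a library took out Actb, which then has no value. Young counts of Myh14 are near the 3 counts that a count of 0 allows, so its difference is imprecise.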
